A study of Mus musculus with 8 samples.

Results

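This account follows 4 genes, Ovgp1 and the simple epithelial keratins Krt8, Krt18 and Krt19, through ovulation in the cumulus cells of mice, the somatic companions packed around each oocyte. The members were chosen by name with their signal at 14 h after the ovulatory hormone already known, so their level at that time is described and not tested. All probe sets whose platform gene symbol is one of the 4 names were taken, which gave 7 of the 12422 probe sets tested: 2 each for Ovgp1, Krt18 and Krt19 and 1 for Krt8. Over the whole array, 8251 genes had a probe set with a single symbol.

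RNA was taken from female C57Bl/6 mice of 3 to 4 weeks, either wild type (WT) or Ptger2(-/-), called EP2KO here, which lack the prostaglandin E2 receptor EP2. All mice received 5 IU of PMSG, an FSH-like hormone, and after 48 h the treated groups received 5 IU of hCG, an LH-like hormone; the 0 h groups had no hCG. Each genotype was represented by 1 Affymetrix murine genome array without hCG and by 1 each at 3 h, 9 h and 14 h after it, which makes 8 arrays in 8 groups, and the labels do not say how many mice each array stands for. Complexes were needled out of ovarian follicles at 0, 3 and 9 h. At 14 h they were collected from the oviduct ampulla and stripped with 0.1% hyaluronidase, so time after hCG, ovulation, contact with the oviduct and the way of collection cannot be told apart at 14 h. In these bulk samples, a change in the number of cells of a type and a change in RNA per cell cannot be told apart either.

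Ovgp1 encodes oviductin, a secreted glycoprotein related to chitinases that non-ciliated cells of the oviduct epithelium release under oestrogen and that coats the ovulated egg. Keratins form the intermediate filaments of epithelial cells by pairing 1 type II protein with 1 type I protein. Krt8 is the type II partner, and Krt18 and Krt19 are type I partners, of the filaments of simple epithelia, the single-layered linings found in oviduct, gut and liver.

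The promoters of Ovgp1, Krt8 and Krt18 are shown because Ovgp1 differed most between 9 and 14 h among the members, and because Krt8 and Krt18, which lie close together, differed from each other in the EP2KO change over those hours. RefSeq entries for 3 of the 4 genes were matched by symbol. Each sequence is the 250 bases before the annotated start, from GRCm38.p6, 5′ to 3′ on the gene's strand. The windows are chr3:105973552-105973801 on the plus strand for Ovgp1, chr15:102004343-102004592 on the minus strand for Krt8 and chr15:102027966-102028215 on the plus strand for Krt18. Capitals mark matches to the motifs named after the sequences.
Ovgp1: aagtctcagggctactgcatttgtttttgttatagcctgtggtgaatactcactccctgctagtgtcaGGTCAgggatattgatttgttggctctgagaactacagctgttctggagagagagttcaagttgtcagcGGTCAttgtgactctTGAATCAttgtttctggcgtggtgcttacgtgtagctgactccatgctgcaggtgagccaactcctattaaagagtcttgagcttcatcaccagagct
Krt8: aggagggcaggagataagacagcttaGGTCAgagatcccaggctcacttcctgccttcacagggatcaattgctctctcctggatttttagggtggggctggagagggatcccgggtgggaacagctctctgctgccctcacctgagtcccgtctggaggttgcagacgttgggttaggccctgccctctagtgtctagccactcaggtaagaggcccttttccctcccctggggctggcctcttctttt
Krt18: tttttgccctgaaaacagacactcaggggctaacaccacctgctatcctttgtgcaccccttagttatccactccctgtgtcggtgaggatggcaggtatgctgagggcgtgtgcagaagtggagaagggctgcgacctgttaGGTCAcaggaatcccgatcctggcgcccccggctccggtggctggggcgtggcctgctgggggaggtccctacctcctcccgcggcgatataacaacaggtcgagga

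Of 5 motifs searched on both strands, 2 had a match. GGTCA, the core bound by nuclear receptors such as the oestrogen receptor, occurred 2 times in the Ovgp1 window, at bases -182 to -178 and -113 to -109 counted from the start, and 1 time each in those of Krt8 and Krt18; 35.2% of the 32851 promoter windows hold it. The AP-1 motif TGANTCA matched Ovgp1 as TGAATCA at -98 to -92 and is present in 6.75% of windows. TATAAA (12.4% of windows), the cAMP response element TGACGTCA (1.55%) and the GC box GGGCGG (32.7%) were not found in these 3 windows. No match overlapped another. The GC content was 46.4% for Ovgp1, 58.0% for Krt8 and 60.4% for Krt18, against a median of 52.4% over all windows.

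The arrays were of like brightness, with medians between 7.79 and 7.89 on the log2 scale. Ptger2 itself read lower in EP2KO than in WT at each time, at 4.57 against 4.95 at 0 h, 4.24 against 5.97 at 3 h, 4.69 against 5.37 at 9 h and 4.51 against 5.33 at 14 h. The 3' minus 5' difference of the Gapdh control probe sets, which grows with the loss of 5' ends, ranged from 0.80 to 1.86 on the 6 arrays before 14 h and reached 2.87 (WT) and 2.82 (EP2KO) on the 14 h arrays. The same difference for Actb did not set the 14 h arrays apart, at 1.61 (WT) and 1.37 (EP2KO) against up to 1.54 before. The part of RNA length in the results at 14 h was not tested. Of the cumulus and granulosa list, 2 genes that were bright on all arrays, chosen after their values were seen, were Inha, an inhibin subunit, at 12.34 to 14.37 and Gja1, the gap junction protein connexin 43, at 13.28 to 13.57.

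Ovgp1 varied within 1 log2 unit until 9 h and was then far higher in the ovulated complexes of both genotypes. Its probe set 100521_at read 7.76 in WT and 7.54 in EP2KO at 0 h, 7.05 and 7.20 at 3 h, 7.57 and 7.39 at 9 h, and 11.13 and 11.46 at 14 h. Both 14 h arrays lay above all 6 earlier ones, with a gap of 3.37 between the lower 14 h value and the highest earlier value. From 9 to 14 h the difference was 3.56 in WT and 4.07 in EP2KO, which is 11.8-fold and 16.8-fold. The limma fit averages the genotypes and gave 3.82 with a standard error of 0.151, pooled over all 8 arrays (n = 2 arrays per time). The differences within a genotype have 1 array per time and so no standard error of their own. No probe set of the array had a larger difference in WT. In EP2KO 2 did, those of Lilr4b, a leukocyte receptor, at 4.36 and Arg1, arginase 1, at 4.14.

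The other Ovgp1 probe set, 102092_s_at, was also far higher at 14 h, while at 3 h it lacked the lower readings of the first. It read 7.38 in WT and 7.26 in EP2KO at 0 h, 7.40 and 7.15 at 3 h, 7.18 and 7.01 at 9 h, and 9.72 and 10.44 at 14 h. The 9 to 14 h difference was 2.54 in WT and 3.43 in EP2KO, 5.82-fold and 10.8-fold. Averaged over the genotypes in the limma fit it was 2.98, with a standard error of 0.206. Only 10 probe sets differed more in WT and 5 in EP2KO. So both probe sets of the oviductin gene, each in both genotypes, separated the 14 h arrays from the rest. They were the 2 member probe sets that stood at least 1 log2 unit higher at 14 h than at 9 h in both genotypes, as 1.47% of all probe sets did, a count from which nothing is read since the 14 h level chose the members.

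**Figure D1:**
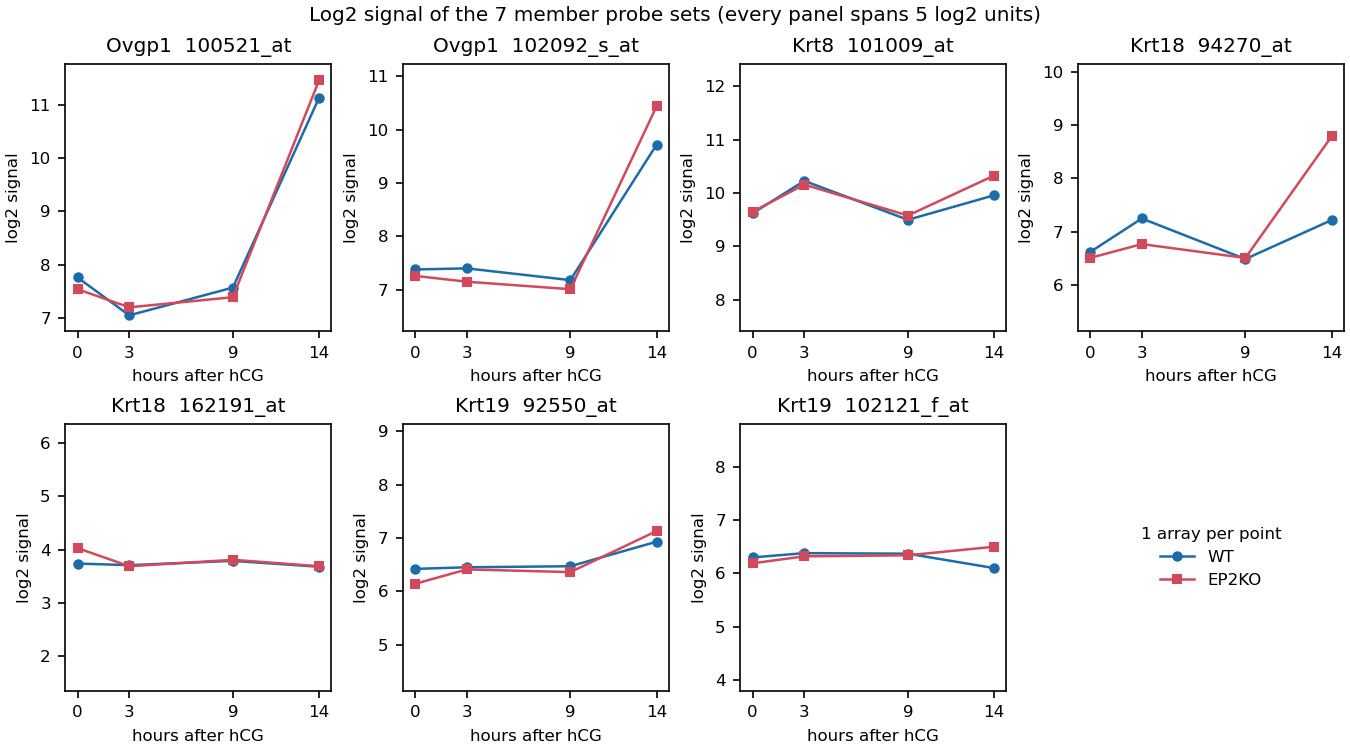
Log2 signal (y axis) against hours after hCG (x axis) for the 7 probe sets of Ovgp1, Krt8, Krt18 and Krt19, with 1 array per point, circles for WT and squares for EP2KO, and y axes of equal span. Both Ovgp1 panels climb only at 14 h, Krt8 has a peak at 3 h, Krt18 94270_at reaches 8.79 in the EP2KO array at 14 h, and Krt18 162191_at and Krt19 102121_f_at are nearly flat.

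Krt8 changed little by comparison, and the arrays of 3 h and 14 h were the higher ones. It read 9.62 in WT and 9.65 in EP2KO at 0 h, 10.23 and 10.16 at 3 h, 9.50 and 9.58 at 9 h, and 9.96 and 10.33 at 14 h. The WT array at 14 h lay below both 3 h arrays, so the 14 h values did not stand apart from the earlier ones. The 9 to 14 h difference was 0.46 in WT and 0.75 in EP2KO, 1.38-fold and 1.68-fold.

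Krt18, the type I partner of Krt8, gave 2 different pictures. Probe set 94270_at read 6.62 in WT and 6.51 in EP2KO at 0 h, 7.25 and 6.77 at 3 h, 6.49 and 6.51 at 9 h, and 7.22 and 8.79 at 14 h. The EP2KO array at 14 h stood alone, whereas WT at 14 h was at the level of WT at 3 h. The 9 to 14 h difference was 0.73 in WT and 2.28 in EP2KO, 1.66-fold and 4.86-fold. The other probe set, 162191_at, lay between 3.68 and 4.03 on all 8 arrays and showed no such difference, with −0.11 in WT and −0.12 in EP2KO from 9 to 14 h. Its signal was so low that it may lie near background, and detection calls were not used here.

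Krt19, the other type I keratin of simple epithelia, was low and modestly higher at 14 h in 1 probe set of 2. Probe set 92550_at read 6.42 in WT and 6.14 in EP2KO at 0 h, 6.45 and 6.41 at 3 h, 6.47 and 6.36 at 9 h, and 6.93 and 7.13 at 14 h. Both 14 h arrays were above every earlier array, by at least 0.46. The 9 to 14 h difference was 0.46 in WT and 0.77 in EP2KO. Probe set 102121_f_at, whose suffix marks probes shared within a family of sequences, ranged only from 6.10 in WT at 14 h to 6.50 in EP2KO at 14 h.

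The contrast of 3 h with 0 h asks what the early ovulatory stimulus did to these genes. Its differences use only the arrays of 0 h and 3 h. Its standard errors and p-values, as in each time contrast, pool the spread over all 8 arrays. These include the 14 h arrays that chose the members. By limma, Krt8 rose by 0.56 ± 0.133 (SE, with n = 2 arrays at each time and an adjusted p = 0.00843), with 0.61 in WT and 0.51 in EP2KO. Ovgp1 100521_at fell by 0.52 ± 0.151 (adjusted p = 0.0194), with −0.71 in WT and −0.34 in EP2KO, while Ovgp1 102092_s_at stood at −0.04 ± 0.206 (adjusted p = 0.874). So 1 member probe set of 7 was called higher and 1 lower, against 17.4% called higher and 25.4% called lower among all probe sets, whose median shift was −0.135. Of all calls at 3 h 40.7% were higher as deposited and 53.1% with arrays centred on their medians. Krt18 94270_at was 0.45 ± 0.364 higher without passing (adjusted p = 0.338), with 0.63 in WT and 0.26 in EP2KO. Its standard error takes in the EP2KO array at 14 h, which read 8.79 against 7.22 in WT. The lack of a call therefore does not show that Krt18 was level at 3 h or differed from Krt8. The 2 Krt19 probe sets stood at 0.15 and 0.10 and Krt18 162191_at at −0.18, none of which passed.

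Both early calls ended under some settings. Krt8 read 0.34 (adjusted p = 0.0941) after quantile normalization, 0.51 (0.0517) with the EP2KO array of 0 h left out, 0.61 (0.0522) with that of WT at 0 h left out and 0.44 (0.0939) with that of WT at 3 h left out. Ovgp1 100521_at read −0.40 (adjusted p = 0.078) after quantile normalization, −0.36 (0.201) without the WT 0 h array, −0.44 (0.148) without the WT 3 h array and −0.52 (0.0537) with only the 4 arrays of 0 and 3 h.

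At 9 h no member probe set was called against 0 h. The 9 h minus 0 h difference ran from −0.22 for Ovgp1 102092_s_at to 0.13 for Krt19 92550_at, and limma called 0 of 7, with 0 at an unadjusted p under 0.05. Among all probe sets 10.9% were called higher and 12.1% lower at 9 h. This contrast shares its 0 h arrays with the one at 3 h. Between 3 and 9 h Krt8 differed by −0.73 in WT and −0.58 in EP2KO, and Krt18 94270_at by −0.76 and −0.26. Across the 6 arrays before 14 h, which share times and genotypes, Krt8 and Krt18 94270_at had a Pearson r of 0.88, and across all 8 arrays one of 0.78. Over the same 6 arrays Krt8 and the other Krt18 probe set had −0.51. Values for other pairs varied widely, with 0.93 for the 2 Krt19 probe sets, 0.04 for the 2 of Ovgp1 and −0.86 for Krt8 with Ovgp1 100521_at. Nothing particular to Krt8 and Krt18 is read from the 0.88.

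The genotype contrast asks whether loss of EP2 shifted these genes on average over the 4 times. It did not detect such a shift: limma called 0 of the 7 member probe sets and 0.0% of all 12422, with adjusted p = 0.995 for each member. At an unadjusted p under 0.05 there were 642 probe sets, none of them a member's. The average EP2KO minus WT difference was 0.02 ± 0.106 for Ovgp1 100521_at, 0.04 ± 0.146 for Ovgp1 102092_s_at, 0.10 ± 0.0939 for Krt8, 0.25 ± 0.257 for Krt18 94270_at and −0.06 ± 0.0954 for Krt19 92550_at (SE, n = 4 arrays per genotype).

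At 14 h alone, with 1 array per genotype, EP2KO read higher than WT for all 7 member probe sets, as did 53.1% of all probe sets. At 9 h it did for 3 of the 7 probe sets. The 14 h difference was 1.57 for Krt18 94270_at, which is 2.97-fold, 0.72 for Ovgp1 102092_s_at, 0.40 for Krt19 102121_f_at, 0.37 for Krt8, 0.33 for Ovgp1 100521_at, 0.20 for Krt19 92550_at and 0.01 for Krt18 162191_at. For Krt18 94270_at the same difference was −0.11 at 0 h, −0.48 at 3 h and 0.02 at 9 h. Only 4 probe sets of the array had a larger difference at 14 h.

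The departure of the 14 h genotype difference from that of the 3 earlier times was 1.76 ± 0.233 for Krt18 94270_at. It was 0.90 ± 0.194 for Ovgp1 102092_s_at and 0.41 ± 0.218 for Ovgp1 100521_at. Limma called 1 of the 7 member probe sets, that of Krt18, and 0.0805% of all probe sets, 8 higher and 2 lower. The departure uses the 14 h arrays that chose the members, so nothing is read from that count. The call ended when arrays were centred on their medians, when the dimmest 40% of probe sets, this one included, were left out, and without any 1 of the WT or EP2KO arrays of 0, 3 or 9 h, though the departure then stayed between 1.62 and 1.86. Other called departures with a single gene symbol were Ccl2, a monocyte-attracting chemokine, at 1.95, Arg1 at 1.80, a Cxcl1 probe set at 1.63, Lilr4b at 1.61 and Ctss, cathepsin S, at 1.5. Lower in EP2KO were Hmgb2 at −1.57 and Bnip3 at −1.56. Over the whole array 0 departures were called with median-centred arrays, with the dimmest 40% left out or with probe sets of a gene averaged. After quantile normalization 9 were called higher and 1 lower, and with an intensity trend 9 and 2.

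**Figure D2:**
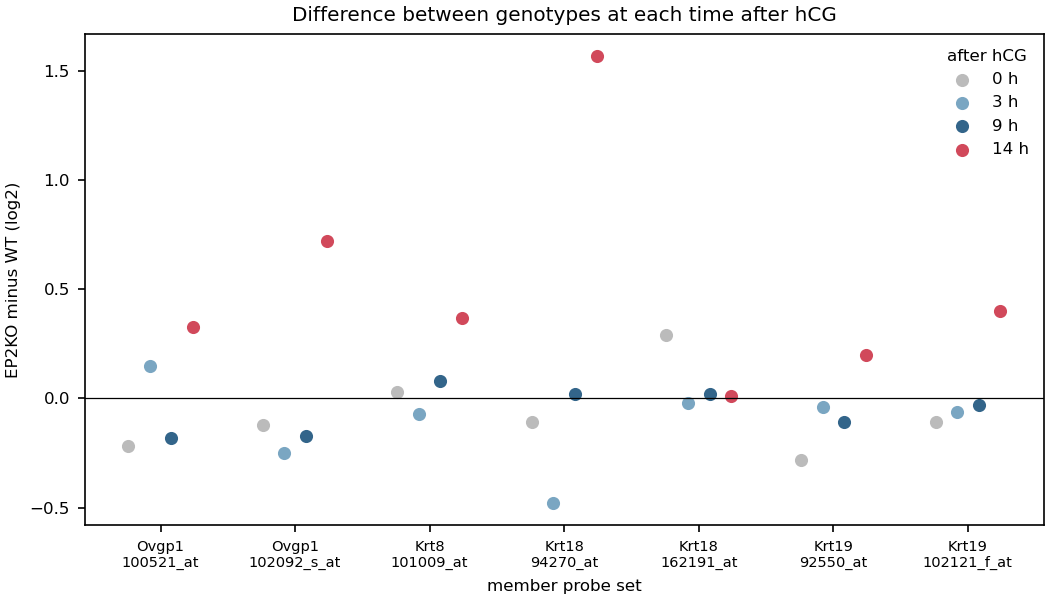
EP2KO minus WT difference in log2 signal (y axis) for each member probe set (x axis), with a point for 0 h, 3 h, 9 h and 14 h of hCG exposure and 1 array per genotype at each time and so no error bar. The 14 h point of Krt18 94270_at at 1.57 stands apart from its 3 earlier points, which lie between −0.48 and 0.02.

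Few markers of oviduct epithelium were called at 14 h. Of 43 listed genes other than the 4 members, 30 were measured, and from 9 to 14 h limma called 3 higher, 0 lower and left 27 uncalled, which is 10.0% higher and equals the background of 10.0% higher among all probe sets (10.1% lower). The 3 were Clu, clusterin, at 0.64 ± 0.147 (adjusted p = 0.0103), Itga6, an epithelial integrin subunit, at 0.63 ± 0.121 and Cd24a, a surface glycoprotein of epithelia and blood cells, at 0.50 ± 0.155. The median change of the list was 0.11 against 0.03 for all probe sets. The 3 calls became 0 with the EP2KO array of 9 h left out, 1 with that of 14 h left out and 0 with only the 4 arrays of 9 and 14 h.

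From 9 to 14 h none of 6 defining oviduct markers was called. Pax8, the transcription factor of secretory cells, ranged from 7.83 to 8.43 over the 8 arrays, and from 9 to 14 h its difference was 0.14 in WT and 0.10 in EP2KO. Foxj1, the master factor of ciliated cells, ranged from 8.30 to 8.85, with 0.02 and −0.17; against 0 h it was called lower at 3 h (−0.48, adjusted p = 0.0107) and at 14 h (−0.41, adjusted p = 0.0252). Cdh1, E-cadherin, ranged from 8.79 to 9.37, with 0.21 and 0.13, and was called lower at 3 h against 0 h (−0.41, adjusted p = 0.0262). Epcam, an epithelial adhesion molecule, had 0.11 in WT and 0.56 in EP2KO, with an adjusted p of 0.123 in limma. Muc1, an apical mucin, had 0.00 and 0.22, and Ltf, oestrogen-induced lactoferrin, 0.13 and 0.20. Of the 30 measured genes 29 spanned less than 1 log2 unit over all arrays in the probe set of highest mean. The mean of the list ran from 7.08 to 7.33 on the earlier arrays and was 7.32 (WT) and 7.40 (EP2KO) on the 14 h arrays. No marker is at 0 on this scale, and dim probe sets may read background, so a level value does not show that a gene is absent or expressed.

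Of 39 other keratins listed, 27 were measured. From 9 to 14 h 0 of these were called higher and 1 lower (3.7%), against 10.0% and 10.1% of all probe sets. The gene called lower was Krt10, a keratin of stratified epithelia, at −1.29 ± 0.173 (adjusted p = 0.000471). It went from 6.92 in WT and 7.36 in EP2KO at 9 h to 6.02 and 5.68 at 14 h. Against 0 h limma called Krt10 higher at 9 h (0.98, adjusted p = 0.0028) but not at 14 h (−0.31, adjusted p = 0.218). From 9 to 14 h its other probe set stood at 0.13. Krt7, the type II keratin that lines ducts and the oviduct, lay between 6.08 and 6.39. Among 40 measured genes of epithelial junctions and epithelial factors 4 were called higher (10.0%, the same share as of all probe sets) and 0 lower. F11r, the tight junction molecule JAM-A, was the largest at 2.0 ± 0.148 (adjusted p = 1.53e-05). It read 9.41 in WT and 9.33 in EP2KO at 9 h and 11.25 and 11.50 at 14 h. Against 0 h limma already called F11r lower at 3 h (−0.55, adjusted p = 0.0154) and higher at 9 h (0.95, adjusted p = 0.00139). The others called from 9 to 14 h were Itga6, Jup, plakoglobin of desmosomes, at 0.49 and Cxadr, another tight junction protein, at 0.40.

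Of 26 measured genes in the list of other intermediate filaments and linkers, 2 were called higher (7.69%) and 3 lower (11.5%). Among all probe sets 10.0% were called higher and 10.1% lower over these hours. This list also holds genes that are not filament genes, such as Fabp5 and the 14-3-3 genes. Ywhaz, a 14-3-3 adaptor, rose by 0.57 in WT and 0.56 in EP2KO, and Macf1, a cytoskeletal linker, by 0.49 and 0.47. Fabp5, a fatty acid binding protein, stood at −1.06, Lmna, the nuclear lamin A, at −0.90 and the 14-3-3 gene Ywhaq at −0.67. The second probe set of Lmna, at 0.03, and those of Ywhaq, at −0.12 and −0.05, did not pass. Vim, vimentin of mesenchymal filaments, had a difference of 0.10 with an adjusted p of 0.696. Of 5 measured genes of the chitinase family, to which Ovgp1 belongs, and of hyaluronidases, 0 were called in either direction. Chil3, a chitinase-like protein, had 0.40 and Chia1, the acidic chitinase, 0.28 from 9 to 14 h, neither passing.

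**Figure D3:**
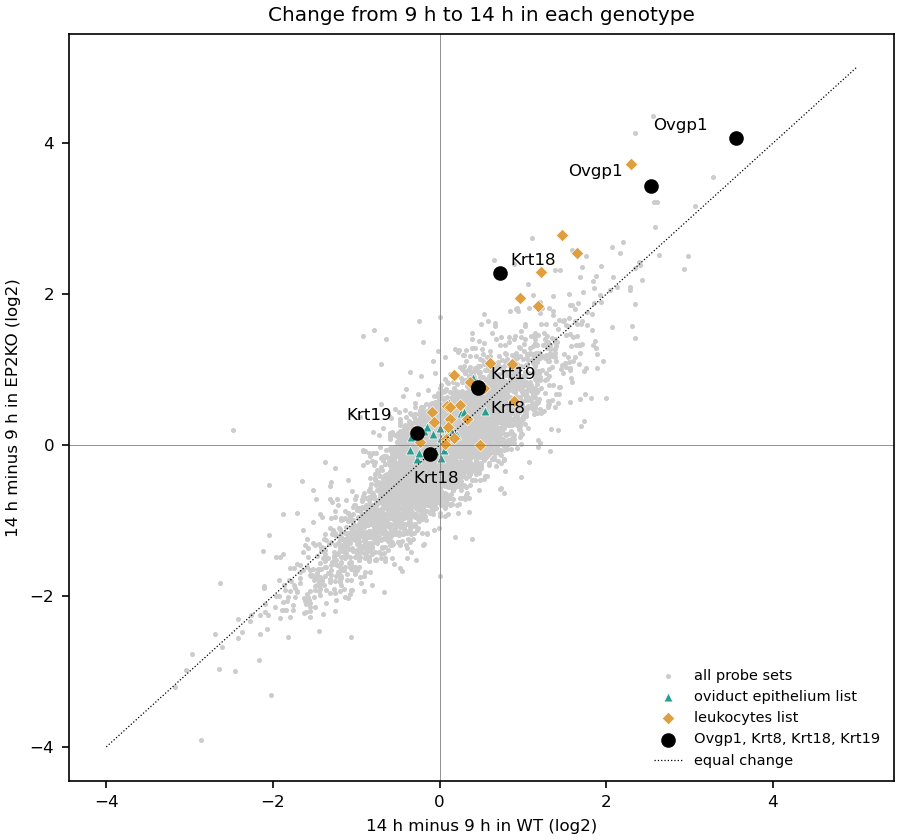
Change in log2 signal from 9 h to 14 h in WT (x axis) and in EP2KO (y axis), 1 array per value, for all 12422 probe sets (grey), the oviduct epithelium list (triangles), the leukocyte list (diamonds) and the members (black, labelled; Krt8 and 1 Krt19 probe set overlap at 0.46 in WT). Ovgp1 lies far to the upper right, the oviduct list near the origin, and Krt18 94270_at above the line of equal change, at 0.73 in WT and 2.28 in EP2KO.

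Some markers of leukocytes were higher at 14 h, as Ovgp1 was. Of 26 measured, limma called 11 higher (42.3%) and 0 lower from 9 to 14 h, against 10.0% of all probe sets called higher. This list, like the others, was chosen with earlier results of these data known, so the share is a description and not independent evidence. Ctss rose by 3.01 ± 0.310 (adjusted p = 9.01e-05), with 6.11 in WT and 6.04 in EP2KO at 9 h and 8.41 and 9.76 at 14 h. S100a8, a neutrophil calcium-binding protein, rose by 2.12, Cd53, a leukocyte tetraspanin, by 2.10, Lyz2, the lysozyme of myeloid cells, by 1.76, S100a9 by 1.51 and Tyrobp, a myeloid signalling adaptor, by 1.46. Another 15 genes of the list were not called. Among these Csf1r stood at 0.38, Adgre1 at 0.31, Itgam at 0.30, Cd3e at 0.17 and Fcgr3 at −0.09. Ptprc, the pan-leukocyte marker CD45, stood at 0.08 in its brightest probe set without passing. Its other probe sets stood at 0.44 (limma, adjusted p = 0.0342) and at −0.14.

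At 14 h the mean of the leukocyte list reached 7.67 (WT) and 8.06 (EP2KO), above the 7.03 to 7.33 of the 6 earlier arrays. At that time 20 of its 26 genes read higher in EP2KO than in WT, with a median difference of 0.30 against 0.02 for all probe sets, of which 53.1% read higher. Other lists had like counts with smaller medians, such as 22 of 27 other keratins (0.09), 12 of 14 oocyte genes (0.08), 28 of 40 junction genes (0.08) and 20 of 30 oviduct genes (0.04), and the 5 of 5 chitinase and hyaluronidase genes had 0.19. Ovgp1, Krt8, Krt18 94270_at and Krt19 92550_at were likewise higher in EP2KO at 14 h. The part of leukocyte RNA in these results was not tested. The leukocyte count was 4 with the dimmest 40% of probe sets left out. That filter took called genes such as Ctss, Cd53, Lyz2 and S100a9 out of the test. The count was 1 with only the 4 arrays of 9 and 14 h.

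Markers of other cells a sample could hold were compared over the same hours, when 10.0% of all probe sets were called higher and 10.1% lower. For ovarian surface epithelium 2 of 15 were called higher, Cdh2, N-cadherin, at 0.90 and Nr2f2 at 0.60. For oviduct muscle and stroma 1 of 20 was called, Col3a1, a fibrillar collagen, at 0.50, while smooth muscle Acta2 had 0.03 and Myh11 −0.19. For the oocyte 1 of 14 was called, the linker histone H1f8 at 0.47, while Zp3, of the zona pellucida, had 0.09 and Gdf9, an oocyte growth factor, 0.08. None of these 3 lists had a gene called lower. Of 20 cumulus and granulosa genes 2 were called higher and 9 lower, with Inhbb, an inhibin subunit, at −3.38, Hsd17b1, which makes oestradiol, at −2.67 and Cyp11a1, which starts steroid synthesis, at 2.08.

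**Figure D4:**
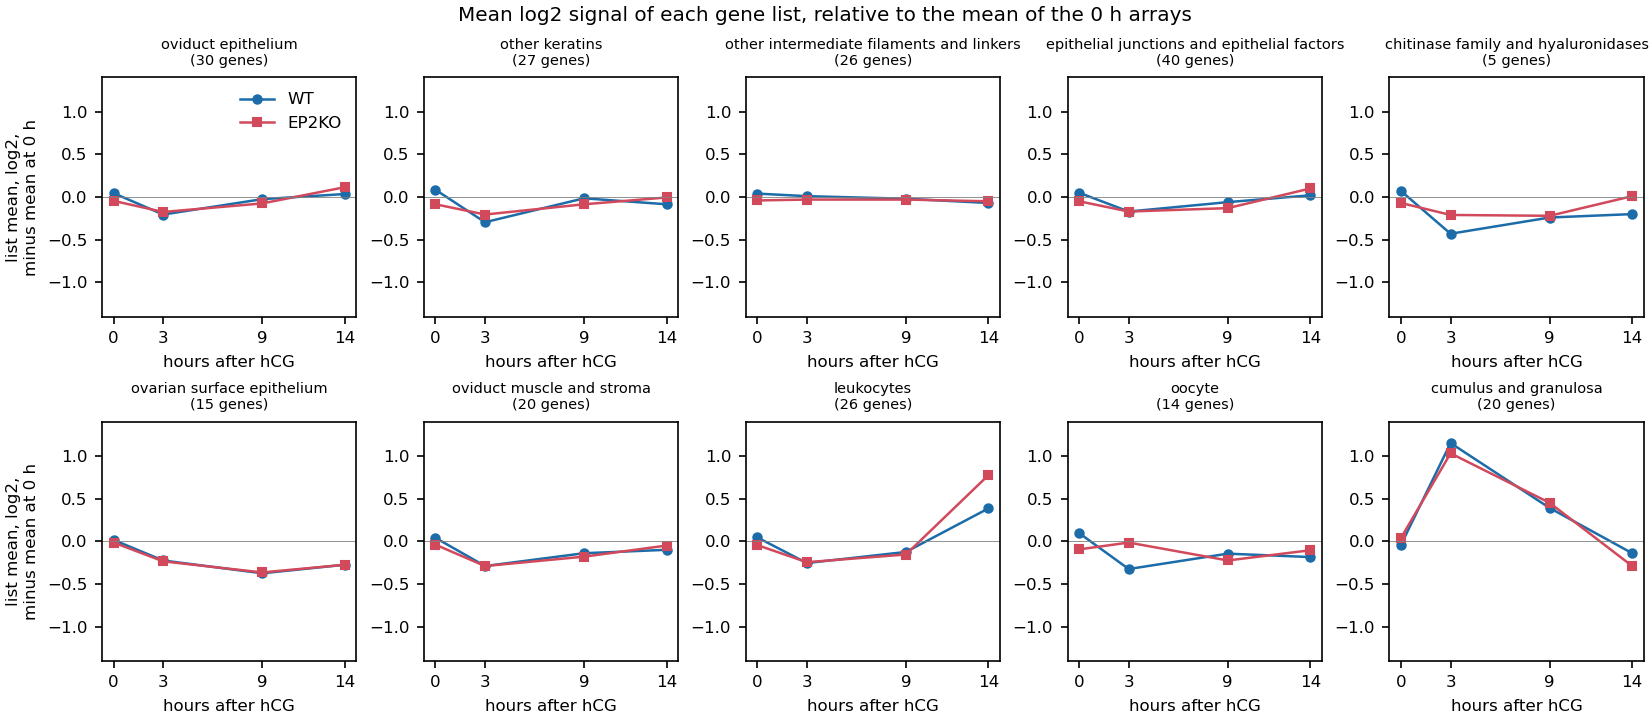
Mean log2 signal of each of the 10 gene lists, minus the mean of the WT and EP2KO arrays at 0 h (y axis), against hours after hCG (x axis), 1 array per point, circles for WT and squares for EP2KO. The leukocyte panel climbs at 14 h and more so in EP2KO (8.06) than in WT (7.67). At 14 h the panels of oviduct epithelium and other keratins are close to their 0 h level. At 3 h they are lower, for other keratins at 7.73 (WT) and 7.82 (EP2KO) against 8.11 and 7.94 at 0 h.

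In the contrast of 14 h with 0 h, which shares its 14 h arrays with the last, 13.5% of all probe sets were called higher and 15.2% lower. The oviduct list had 3 of 30 higher and 1 lower, the other keratins 0 and 0 of 27, the junction list 4 and 3 of 40, the other filaments 5 and 4 of 26, and the chitinase and hyaluronidase list 0 and 1 of 5. The surface epithelium, muscle and oocyte lists had calls in the other direction from those since 9 h. The leukocyte list had 10 higher and 0 lower of 26, the surface epithelium list 0 and 4 of 15, muscle and stroma 0 and 1 of 20, the oocyte list 0 and 1 of 14, and the cumulus list 6 and 10 of 20. For the members this difference was 3.37 in WT and 3.92 in EP2KO for Ovgp1 100521_at, 2.34 and 3.18 for Ovgp1 102092_s_at, 0.34 and 0.68 for Krt8, 0.60 and 2.28 for Krt18 94270_at, and 0.51 and 0.99 for Krt19 92550_at.

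At 3 h, when Krt8 rose, 0 of the 27 other keratins measured were called higher and 9 lower in the deposited values, with a list median of −0.31. Among all probe sets 17.4% were called higher and 25.4% lower at 3 h, and the 81 calls over the lists became 16 without the WT array of 0 h and 19 without the WT array of 3 h. The oviduct list had 1 higher and 8 lower of 30, the junction list 2 and 14 of 40, the other filaments 3 and 7 of 26, and the chitinase and hyaluronidase list 0 and 2 of 5. The leukocyte list had 0 and 7 of 26, surface epithelium 1 and 7 of 15, muscle and stroma 0 and 8 of 20, the oocyte list 0 and 4 of 14, and the cumulus list 8 and 6 of 20. At 9 h against 0 h the higher and lower calls were 0 and 2 for oviduct, 1 and 1 for other keratins, 5 and 6 for other filaments, 3 and 4 for junctions, 0 and 1 for chitinases and hyaluronidases, 0 and 4 for surface epithelium, 0 and 1 for muscle and stroma, 0 and 0 for leukocytes, 0 and 2 for the oocyte and 7 and 11 for cumulus.

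Over the 8 arrays, which are 4 times in 2 genotypes, the probe sets most like each member were found by Pearson r among those of other genes spanning at least 1 log2 unit. For Ovgp1 100521_at they were Ptpn22 (0.996), Retreg1 (0.993), Il1rn (0.992), Ctdsp2 (0.989) and Saa3 (0.988). Saa3, for example, read 7.40 in WT and 7.26 in EP2KO at 9 h and 9.97 and 10.48 at 14 h. For Ovgp1 102092_s_at they were Tgfbi (0.995), Cd53, Ctss and Asap1 (0.992 each) and Aebp1 (0.990). Since Ovgp1 varies mostly through the 14 h arrays, genes most like it had to be high there too.

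Krt18 94270_at was most like C1qb (0.966), Lyz2 (0.965), Pim1 (0.938), Apoe (0.936) and Arg1 (0.936). C1qb, a complement subunit, read 5.98 in WT and 5.91 in EP2KO at 9 h and 6.37 and 7.40 at 14 h, the EP2KO array being the high one as for Krt18. Krt8 was most like Slc20a1 (0.942), D030056L22Rik (0.937), Bmp6 (0.931), Psmb8 (0.928) and Gabarapl1 (0.924). Krt19 92550_at was most like Jak2 (0.976), Tec (0.972), Fn1 (0.965), Inpp5a (0.964) and Mvp (0.961). The nearly flat Krt18 162191_at had r up to 0.878, with Hcn2, and Krt19 102121_f_at up to 0.80, with Cxcl1. Cd53, Ctss and Lyz2 are genes of the leukocyte list. In the probe set of highest mean, 29 of the 30 oviduct genes spanned too little to be candidates. The other Clu probe set, which ran from 8.70 to 9.92, was a candidate.

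In the RefSeq gene order the nearest genes to Ovgp1 on one side are Wdr77 and Atp5pb, while Pifo and Chil5 on the other side had no probe set matched here. From 9 to 14 h Wdr77, part of a methyltransferase complex, had a difference of −0.01 (limma, adjusted p = 0.97) and Atp5pb, an ATP synthase subunit, one of −0.02 (adjusted p = 0.947). Krt8 and Krt18 lie close together on chromosome 15, with only the non-coding genes Gm36026 and Gm41404 listed between them. Eif4b, a translation factor on the far side of Krt18, had 1 of its 4 probe sets called, at 0.86, with 9.15 in WT and 9.22 in EP2KO at 9 h and 10.19 and 9.90 at 14 h. Beside Krt19 on chromosome 11, Krt15 had a difference of 0.05 and the 3 probe sets of Krt13 ran from −0.14 to 0.10.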

How the data were processed

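Gene expression was measured with 8 Affymetrix arrays. The deposited values are log2 signals with 2 decimals, made by the authors with RMA (robust multi-array average) per the submitters' processing notes; no version is stated there. They were used as deposited, without a further constant, scaling or filter. Of 12488 probe sets 66 Affymetrix controls were left out. Symbols come from the platform annotation, updated by gene ID through RefSeq; 10833 probe sets carry 1 symbol, 396 several and 1193 none. No 2 arrays shared over 2.54% of equal values.

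Fits used limma 3.58.1 in R 4.3.3 on all 12422 probe sets, with time and genotype as terms, no intensity trend and 3 residual degrees of freedom (7.24 from the prior). The departure added genotype at 14 h as a term, which left 2 residual degrees of freedom (8.20 from the prior). Adjusted p is Benjamini-Hochberg over all probe sets within a contrast, two-sided, called under 0.05; "rose" and "fell" mean called. The script was tested on simulated data. With 1 array per group, p-values measure only the spread between these arrays, which may be technical, and the number of arrays limits the precision.

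The 4 members and the 10 gene lists were chosen with earlier results of these data known. For a listed gene with several probe sets, the one of highest mean was counted. Named were the members, the 5 most like probe sets by Pearson r, up to 6 called list genes per list with the largest change in the same direction in both genotypes, defining markers, the 2 neighbours on each side, and Ptger2. The other called departures, the genes with larger 9 to 14 h differences, and Chil3, Chia1, Inha and Gja1 were named after their values were seen. Alternatives were median centring, quantile normalization, a 40% filter on low means, an intensity trend, each array left out, only the times compared, and averaged probe sets.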

Additional observations from a re-analysis of the deposited data

Results flagged for a closer look

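The EP2KO minus WT difference of Krt18 94270_at at 14 h departed from that of 0, 3 and 9 h by 1.76 on the log2 scale, on 1 array per genotype and time. The 14 h arrays chose the genes, so this is a description, and the limma call ended with median-centred arrays and with each earlier array left out.

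Small changes of opposite sign in the 2 genotypes, whose difference was not tested, were seen 3 times among the differences from 0 h. Ovgp1 102092_s_at changed by 0.02 in WT and −0.11 in EP2KO from 0 to 3 h. Krt18 162191_at changed by 0.05 in WT and −0.22 in EP2KO from 0 to 9 h. Krt19 102121_f_at changed by −0.20 in WT and 0.31 in EP2KO from 0 to 14 h, and by −0.27 and 0.16 from 9 to 14 h.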

How the results depend on the processing

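Of the members, 2 probe sets were called at 3 h; 0 were called after quantile normalization, 1 with only the arrays of 0 and 3 h, and 0 to 3 with each array left out. The 1 departure call at 14 h became 0 with median-centred arrays, 0 with the lowest 40% left out and 0 with each earlier array left out, which leaves 1 residual degree of freedom fewer; without either 14 h array it could not be fitted. Calls at 9 h and between genotypes stayed at 0 under every alternative run. The number of member probe sets that stood at least 1 log2 unit above 9 h in both genotypes was 2 after centring and after quantile normalization too.

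Over the 10 gene lists, the 38 calls from 9 to 14 h became 6 with only the arrays of those times and 23 to 40 with each array left out, the fewest without the EP2KO 9 h array. The 81 calls at 3 h became 52 with median-centred arrays, 53 with the lowest 40% left out, 31 with only the arrays of 0 and 3 h, and 16 to 83 with each array left out, 16 without that of WT at 0 h and 19 without that of WT at 3 h. The 46 calls at 9 h became 23 to 50 with each array left out, 24 without that of WT at 0 h and 23 without that of WT at 9 h. The 51 calls from 0 to 14 h stayed within 1.5 times under every alternative run. No member value reversed; for the lists only counts were compared. Of all calls at 3 h, 40.7% were higher as deposited, 53.1% centred, 54.5% with the low filter, 55.2% without WT at 0 h and 57.8% without WT at 3 h.

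No paired analysis was possible because each group has 1 array and every replicate number is 1; the genotypes were matched by time within the fit. Dim probe sets such as Krt18 162191_at limit what a level value shows.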
